A study of Mus musculus with 18 samples.

Results

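Luminal progenitors (LP) were compared with basal cells of the mammary epithelium in wildtype (WT) mice, by bulk RNA sequencing of 3 libraries of each population. The 6 libraries, out of 18 in the series, were chosen by their labels: gate P7 for LP and gate P5 for basal cells, with the WT genotype label. Each of 3 female mice aged 14 weeks gave 1 library of each population, and the mouse number in the library name pairs them. The libraries of mature luminal (ML) cells from the same mice are used below only as a yardstick. The 9 libraries from mice with MMTV-cre, Brca2(delta/delta) and Trp53(delta/+) entered the shared estimate of spread, and a test of whether the LP to basal difference was the same in those mice. No treatment is recorded. The strain label reads MMTVcre Brca2(fl/fl) Trp53(fl/+) for all libraries, so the labels do not settle which of these alleles the WT mice carried. The cells were sorted by flow cytometry. The labels do not say which surface proteins defined the gates.

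The mammary duct is a tube with an inner luminal layer and an outer basal layer. Basal cells are contractile: they squeeze milk along the duct in response to oxytocin and lay down the basement membrane on which the epithelium rests. LP are inner-layer cells with few oestrogen or progesterone receptors. They are the source of the alveolar cells that make milk, and the transcription factor Elf5 and the receptor Kit are their usual marks. ML cells are the hormone-sensing part of the inner layer.

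The 2 layers differed in a large part of the transcriptome. Of 16466 genes tested, 3184 were higher in LP than in basal cells (19.3%) and 3578 were lower (21.7%), together 41.1% of those tested, by edgeR's quasi-likelihood test with the mouse as a block and a Benjamini-Hochberg adjusted p under 0.05. More than a 2-fold difference was seen for 2326 of the higher genes (14.1% of those tested) and 2789 of the lower genes (16.9%). More than an 8-fold difference was seen for 790 higher and 1351 lower genes. All 3 LP libraries lay above all 3 basal libraries for 3363 genes (20.4%) and below them for 3909 (23.7%). Without mouse 2, 2020 genes were higher in LP and 2597 lower. The median log2 fold change over all genes was -0.01. The shares of 19.3% higher and 21.7% lower are the background for each list count below. All log2 fold changes below are LP minus basal, with their standard error (SE), and levels are CPM, read counts scaled to a common library total with the TMM factors, in mice 1, 2 and 3 in that order. In bulk libraries, fewer cells of a type and less RNA per cell cannot be told apart, which holds for every level below.

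**Figure D1:**
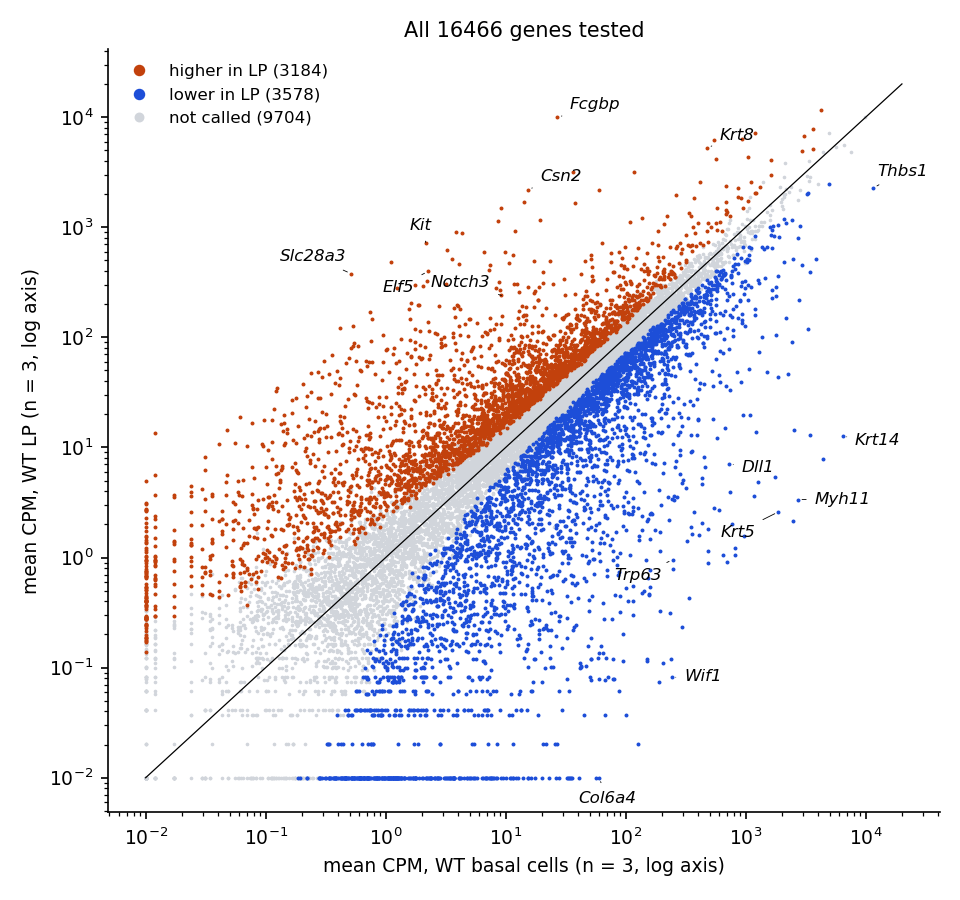
Mean level of each gene tested in WT LP (vertical axis, CPM, log scale) against WT basal cells (horizontal axis, CPM, log scale), n = 3 libraries each. Points above the diagonal are higher in LP: 3184 genes passed the test in that direction (orange), 3578 in the other (blue) and 9704 did not pass (grey), and means below 0.01 CPM are drawn at 0.01.

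Total counts (M) were 9.29, 9.86 and 16.17 in LP and 22.81, 33.49 and 12.08 in basal cells, so basal cells were the deeper side in mice 1 and 2 and LP in mouse 3. The 10 most abundant genes held 7.27% to 8.81% of an LP library and 5.25% to 6.54% of a basal library. The LP to basal difference itself differed between WT mice and those with deleted Brca2 for 437 genes (2.65%). The labels name the 3 mice as separate individuals. Same-mouse LP and basal libraries deviated together from their group means (r of 0.334, 0.219 and 0.216).

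Both labels held up against the markers of their cell type. Kit, the stem cell factor receptor (chr5:75574987-75656722), stood at 492, 833 and 852 CPM in LP, against 1.71, 1.76 and 3.01 CPM in basal cells. Elf5, an ETS transcription factor of the alveolar lineage (chr2:103412098-103450989), stood at 157, 552 and 484 CPM in LP, against 1.20, 2.66 and 2.92 CPM in basal cells. Mouse 1 was lowest in LP for both genes, and the populations were far from overlapping. The log2 fold changes were 8.41 ± 0.49 for Kit (adjusted p = 3.2e-09) and 7.39 ± 0.54 for Elf5 (adjusted p = 2.7e-08). Of 18 LP markers tested, 15 were higher in LP, 0 were lower and the median log2 fold change was 5.71. The 3 that did not pass were surface integrins and a secreted protein: Itgb3 stood at 40.0, 65.4 and 40.2 CPM in LP and 29.9, 48.5 and 65.6 CPM in basal cells. Itga2 (log2 fold change 0.68 ± 0.54, adjusted p = 0.34) and Lcn2, the iron-trapping protein lipocalin 2 (0.44 ± 0.46, adjusted p = 0.48), were the others.

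Marker shares give a rough measure of how much of the other population each library could hold, and they differed by marker. In basal libraries, Kit stood at 0.349%, 0.211% and 0.354% of its level in LP of the same mouse. Krt8, at 9.4%, 7.54% and 10.5%, was far above that share. In LP libraries, Krt5 stood at 0.188%, 0.0941% and 0.136% of its basal level and the smooth muscle myosin Myh11 at 0.0914%, 0.114% and 0.143%. These are low shares within their lists. Over the 5 of 8 basal keratins with at least 10 CPM in every basal library, the LP share ran from 0.0941% to 6.02%. Over the 20 of 24 contractile genes past this floor, its medians were 6.61%, 2.72% and 4.83%, and its highest value 440%. The floor left out Krt6a and Ldb3, which were higher in LP, so both summaries are low in part by selection. Among LP markers, 17 of 18 had at least 10 CPM in every LP library. Over these 17 the median shares in basal cells were 0.969%, 1.65% and 1.43%, with the highest single value at 163%.

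**Figure D2:**
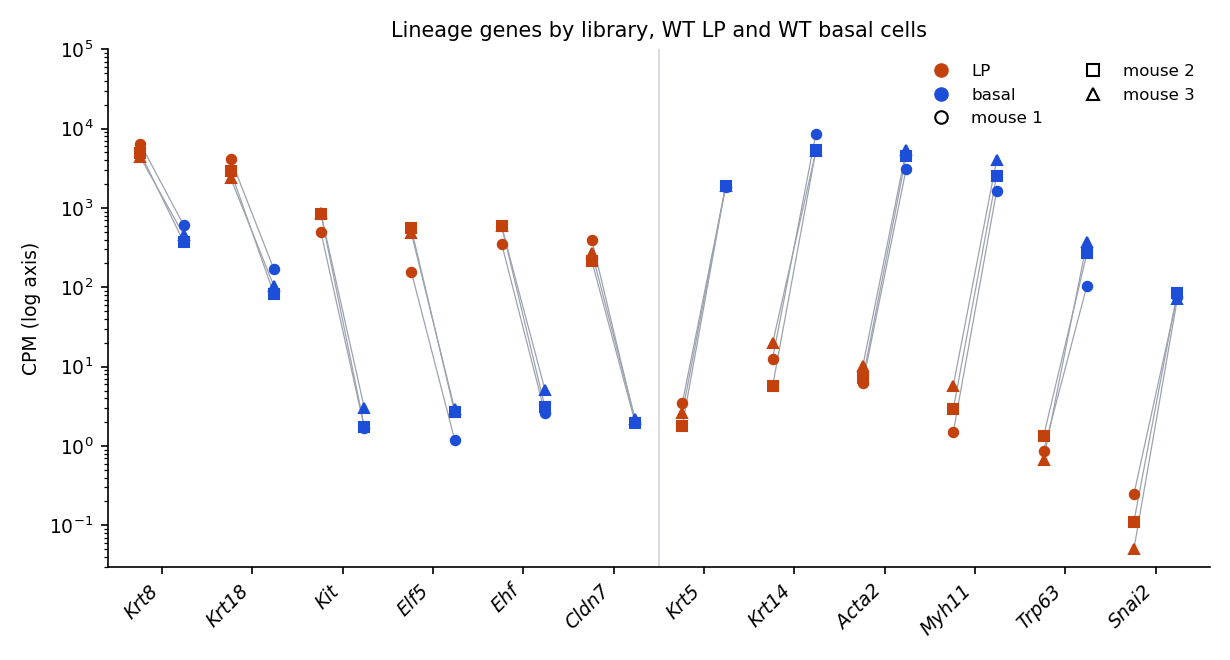
Level in CPM (log axis) of 12 lineage genes in each WT LP library (orange, left of each pair) and WT basal library (blue, right). Lines join libraries of the same mouse (circle, square and triangle for mice 1, 2 and 3) and a value of 0 is drawn at 0.05: the 6 genes on the left are higher in LP in all 3 mice and the 6 on the right lower.

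Keratins, the intermediate filament proteins of epithelia, were exchanged between the layers. Krt5 (chr15:101707069-101712905) stood at 3.45, 1.78 and 2.57 CPM in LP, against 1840, 1890 and 1891 CPM in basal cells. Basal cells were almost uniform and LP close to nil (log2 fold change -9.51 ± 0.44, adjusted p = 3.8e-10). Its filament partner Krt14 stood at 12.5, 5.67 and 19.7 CPM in LP, against 8643, 5323 and 5234 CPM in basal cells (-9.01 ± 0.57, adjusted p = 6.4e-09). Per kilobase of transcript, Krt14 reached a mean of 3855 RPKM in basal cells and Krt5 855 RPKM. Krt17 followed the same pattern, with -8.12 ± 0.67 (adjusted p = 8.9e-08), as did Krt15 with -5.11 ± 0.33 (adjusted p = 7.3e-09) and Krt16 with -4.59 ± 0.54 (adjusted p = 4.4e-06). Of 8 basal keratins tested, 6 were lower in LP and 1 was higher, with a median of -6.44. The median was -4.85 with Krt75, at 0 counts in LP, set at its bound of at least 13.9-fold lower.

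Krt6a, a keratin of stress and wound responses, went the other way, at 34.0, 24.4 and 21.7 CPM in LP against 32.2, 8.18 and 7.91 CPM in basal cells. The difference was small (log2 fold change 0.96 ± 0.32, adjusted p = 0.027), rested on mice 2 and 3 and passed in 8 of 12 alternative settings. Krt6b did not pass (-0.06 ± 0.34, adjusted p = 0.91). Krt6a and Krt6b, and Krt14, Krt16 and Krt17, are near copies of each other, so reads may have been split between them.

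The luminal keratins ran in the opposite direction. Krt8 stood at 6462, 4916 and 4364 CPM in LP, against 607, 371 and 457 CPM in basal cells (log2 fold change 3.47 ± 0.23, adjusted p = 9.9e-09). Its partner Krt18 stood at 4165, 2912 and 2375 CPM in LP, against 168, 81.7 and 103 CPM in basal cells (4.77 ± 0.28, adjusted p = 3.0e-09). Krt19 had the largest difference of the group (6.46 ± 0.34, adjusted p = 1.1e-09), ahead of Krt7 (5.17 ± 0.29, adjusted p = 2.3e-09). Krt23 was the exception among the 5 luminal keratins tested. It stood at 15.1, 8.01 and 16.6 CPM in LP against 25.8, 23.2 and 27.3 CPM in basal cells (-1.03 ± 0.38, adjusted p = 0.041), a call kept in 7 of 12 alternative settings.

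Most contractile genes were lower in LP, and together they summed to 1160 to 1437 CPM in LP, against 16359 to 25888 CPM in basal cells. Myh11, smooth muscle myosin heavy chain, stood at 1.48, 2.89 and 5.70 CPM in LP, against 1620, 2531 and 3996 CPM in basal cells. The order of the mice was the same in both populations, and the log2 fold change was -9.71 ± 0.38 (adjusted p = 1.2e-10). Acta2, smooth muscle actin, stood at 6.29, 7.12 and 10.3 CPM in LP, against 3138, 4561 and 5393 CPM in basal cells (-9.11 ± 0.45, adjusted p = 6.4e-10). The kinase Mylk (-9.28 ± 0.43, adjusted p = 3.8e-10) and its substrate, the light chain Myl9 (-8.72 ± 0.37, adjusted p = 2.1e-10), were similar in size. Of 24 contractile genes tested, 20 were lower in LP and 2 higher, with a median of -4.55, or -4.25 with the member at 0 counts in LP set at its bound.

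The exceptions named here concern some regulators and the Z-disc. Srf, the serum response factor that drives smooth muscle genes in many tissues, stood at 134, 309 and 240 CPM in LP and 149, 257 and 308 CPM in basal cells and did not pass the test (log2 fold change -0.08 ± 0.22, adjusted p = 0.81). Its cofactor Mrtfb was higher in LP, at 122, 183 and 146 CPM against 39.4, 41.5 and 62.6 CPM in basal cells (1.66 ± 0.26, adjusted p = 8.8e-05). Mrtfa, of the same family, ran the other way, with LP at 46.9%, 68.1% and 48.8% of the basal level. Ldb3, a Z-disc protein of striated muscle, was also higher, at 5.80, 14.3 and 11.4 CPM in LP against 0.416, 0.682 and 0.188 CPM in basal cells (4.61 ± 0.52, adjusted p = 3.2e-06).

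Serum response factor binds the CArG box, so the RefSeq promoters of the contractile genes (GRCm38.p6, from 250 bases before to 50 after the start of transcription) were searched for it on both strands. It was found in 4 of 26 promoters (15.4%), against 1.63% of all 32851 promoters of that length. The 4 belong to 3 of the 20 contractile genes with a promoter searched, out of 24 in the list. No match overlapped the STAT5 motif searched for the milk genes. The 3 genes differ in direction: Myl9 was lower in LP, Ldb3 higher, and Srf itself did not pass. A match is a description of letters and does not show binding. The bases upstream of each start are given 5′ to 3′ on the strand of the gene, with the CArG box in capitals, to set the shared letters beside the unlike values. They are Myl9 at chr2:156775214-156775463 on the + strand, 161 bases upstream, Ldb3 at chr14:34588608-34588857 on the - strand, 109 bases upstream, and Srf at chr17:46556163-46556412 on the - strand, with 2 matches, the farther 82 bases upstream.
Myl9: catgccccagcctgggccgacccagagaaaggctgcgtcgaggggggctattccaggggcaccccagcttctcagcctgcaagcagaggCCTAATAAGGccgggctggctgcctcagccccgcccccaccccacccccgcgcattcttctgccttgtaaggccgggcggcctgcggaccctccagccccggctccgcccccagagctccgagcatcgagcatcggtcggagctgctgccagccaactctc
Ldb3: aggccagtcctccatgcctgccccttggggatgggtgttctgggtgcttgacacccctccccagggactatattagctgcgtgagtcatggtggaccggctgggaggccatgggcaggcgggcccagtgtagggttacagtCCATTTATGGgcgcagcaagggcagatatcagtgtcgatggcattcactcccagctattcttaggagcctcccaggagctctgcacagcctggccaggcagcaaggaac
Srf: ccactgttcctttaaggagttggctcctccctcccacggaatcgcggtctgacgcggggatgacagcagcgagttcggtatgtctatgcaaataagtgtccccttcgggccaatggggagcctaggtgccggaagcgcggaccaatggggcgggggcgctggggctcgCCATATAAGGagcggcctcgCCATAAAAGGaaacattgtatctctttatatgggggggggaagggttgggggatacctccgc

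Genes of the basement membrane and of the hemidesmosome, the junction that rivets basal cells to it, were lower in LP almost throughout. Of 26 tested, 23 were lower in LP and 0 higher, with a median of -2.76. Col17a1, the transmembrane collagen of the hemidesmosome, stood at 3.45, 1.33 and 1.29 CPM in LP, against 904, 608 and 800 CPM in basal cells (log2 fold change -8.67 ± 0.36, adjusted p = 1.3e-10). Col7a1, the anchoring fibril collagen, stood at 9.01, 2.89 and 2.02 CPM in LP, against 459, 423 and 419 CPM in basal cells (-6.78 ± 0.39, adjusted p = 2.5e-09). Both were below 10 CPM in each LP library. Sparc, a collagen-binding matrix protein (-8.37 ± 0.34, adjusted p = 1.2e-10), and the nidogen Nid1, which links laminin to collagen (-6.79 ± 0.46, adjusted p = 1.4e-08), were the others of lowest p. Fibroblast markers, which include matrix genes, moved the same way: their summed level was 47.1 to 88.0 CPM in LP and 2337 to 4431 CPM in basal cells. Their part in the matrix result was not tested.

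Cell to cell junctions were split by type. Genes of tight junctions, which seal the lumen, were mostly higher in LP than in basal cells: 17 of 24 members were higher, 0 lower, and the median was 3.33. Their levels in ML cells were not compared. Cldn7, a claudin, stood at 390, 212 and 274 CPM in LP, against 2.03, 1.94 and 2.17 CPM in basal cells (log2 fold change 7.13 ± 0.27, adjusted p = 1.2e-10). Occludin (Ocln) stood at 231, 171 and 139 CPM in LP, against 5.25, 3.37 and 3.86 CPM in basal cells (5.44 ± 0.21, adjusted p = 1.2e-10). Mouse 1 was the highest LP library for both and the populations were far apart. Cldn8 (6.55 ± 0.36, adjusted p = 2.0e-09) and the tricellulin gene Marveld2 (3.97 ± 0.19, adjusted p = 4.7e-10) completed the members of lowest p.

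Desmosomes and adherens junctions gave no single direction, with 6 of 19 members higher in LP, 8 lower and a median of -0.30. P-cadherin (Cdh3) stood at 2.84, 0.890 and 1.10 CPM in LP, against 485, 365 and 377 CPM in basal cells (log2 fold change -8.11 ± 0.32, adjusted p = 1.2e-10). The desmosomal cadherin Dsc3 was also lower (-6.60 ± 0.60, adjusted p = 8.8e-07), while Dsg2, of the other desmosomal cadherin family, was higher in LP (1.36 ± 0.30, adjusted p = 0.0019). The desmosomal plaque protein Pkp2 stood at 136, 104 and 78.3 CPM in LP, against 0.987, 1.00 and 0.848 CPM in basal cells (6.79 ± 0.25, adjusted p = 1.2e-10). The adhesion proteins Nectin4 (4.97 ± 0.30, adjusted p = 3.8e-09) and Nectin2 (1.03 ± 0.20, adjusted p = 7.0e-04) were higher as well.

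The transcription factors of the 2 layers were as divided as their structural genes. Trp63, the p63 factor needed for basal epithelia, stood at 0.864, 1.33 and 0.674 CPM in LP, against 105, 267 and 370 CPM in basal cells. Its level varied more than 3-fold between basal libraries, with mouse 1 lowest, and LP lay far below all of them (log2 fold change -8.06 ± 0.50, adjusted p = 5.4e-09). Snai2, the repressor known as Slug, had 3 counts over the LP libraries and 4609 over the basal libraries, an 889-fold lower level in LP (95% counting interval 304 to 4313). The Iroquois factor Irx4 likewise had 3 counts in LP and 4571 in basal cells, 882-fold lower in LP (302 to 4278). Id4, an inhibitor of helix-loop-helix factors, stood at 0.864, 3.34 and 3.19 CPM in LP, against 128, 184 and 181 CPM in basal cells (-6.16 ± 0.45, adjusted p = 2.8e-08). Of 19 basal and mesenchymal factors tested, 14 were lower in LP and 1 was higher, with a median of -4.03. The exception was Sox9, at 786, 726 and 541 CPM in LP against 384, 363 and 324 CPM in basal cells (0.92 ± 0.20, adjusted p = 0.0014). Sox9 was therefore present in both layers.

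Among luminal factors 13 of 24 were higher in LP, 2 lower, and the median was 0.65. After Elf5, the largest differences among the members of lowest p belonged to its ETS relatives. Ehf stood at 353, 593 and 587 CPM in LP, against 2.60, 3.09 and 5.09 CPM in basal cells (log2 fold change 7.19 ± 0.48, adjusted p = 1.0e-08), and Elf3 at 341, 423 and 245 CPM in LP, against 19.2, 41.8 and 30.5 CPM in basal cells (3.49 ± 0.28, adjusted p = 7.6e-08). Grhl1, a grainyhead factor of epithelial barriers, was higher too (3.35 ± 0.31, adjusted p = 3.4e-07). Runx1 was the clearest factor against the list, at 359, 354 and 155 CPM in LP and 1765, 1772 and 1782 CPM in basal cells (-2.74 ± 0.29, adjusted p = 1.8e-06). Tfap2c was slightly lower in LP (-0.78 ± 0.21, adjusted p = 0.0077). Gata3, a factor of luminal fate, stood at 148, 195 and 145 CPM in LP and 138, 101 and 103 CPM in basal cells and did not pass the test (0.50 ± 0.25, adjusted p = 0.13).

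Milk genes were expressed in LP of these mice at levels that depended on the mouse. The beta-casein gene Csn2 (chr5:87692619-87699429) stood at 93.1, 1922 and 4565 CPM in LP, against 0.883, 5.92 and 39.2 CPM in basal cells. LP of mouse 1 was far below LP of mice 2 and 3, and the basal libraries stood in the same order at 0.949%, 0.308% and 0.858% of the LP level. The log2 fold change was 7.21 ± 1.04 (adjusted p = 3.9e-05). The alpha-casein genes had the same order of mice: Csn1s1 stood at 82.2, 1625 and 2775 CPM in LP, against 0.312, 4.95 and 22.1 CPM in basal cells (7.47 ± 1.06, adjusted p = 3.4e-05). Csn1s2a stood at 19.9, 980 and 2433 CPM in LP, against 0.208, 2.76 and 22.7 CPM in basal cells (7.11 ± 1.00, adjusted p = 3.1e-05). The labels say nothing of oestrous cycle stage or parity.

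Csn3 and Btn1a1 differed less between mice than these caseins. The kappa-casein gene Csn3 stood at 1030, 2224 and 1802 CPM in LP, against 9.98, 17.8 and 15.3 CPM in basal cells (log2 fold change 6.85 ± 0.71, adjusted p = 1.2e-06). Btn1a1, the butyrophilin of the milk fat globule membrane, stood at 667, 1539 and 509 CPM in LP, against 3.12, 4.02 and 4.33 CPM in basal cells (7.73 ± 0.57, adjusted p = 3.0e-08). Mouse 1 was not the lowest LP library for Btn1a1. Lalba, alpha-lactalbumin of lactose synthesis (7.89 ± 0.69, adjusted p = 2.0e-07), and lactoferrin, Ltf (7.78 ± 0.60, adjusted p = 4.3e-08), were the other members of lowest p. Of 22 milk genes tested, 19 were higher in LP and 0 lower, with a median of 4.91. The whey protein Wap, a late marker of lactation, had 396 counts in LP, nearly all from mouse 3 (0, 0.111 and 24.2 CPM), and 1 count in basal cells, a 684-fold higher level in LP (95% counting interval 122 to 27092). Without mouse 3, the Wap difference did not pass (adjusted p = 0.48).

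Caseins are classic targets of STAT5, the factor activated by prolactin. Its motif TTCNNNGAA, searched on both strands, was found in 4 of 19 promoters of milk genes (21.1%), against 8.3% of all promoters. The 4 belonged to 4 of the 16 milk genes with a promoter searched, out of 22 in the list. They were Csn1s1, Csn2, Csn1s2a, where it lay at base 21 past the start, and Glycam1, which did not pass the test (log2 fold change 1.71 ± 1.89, adjusted p = 0.51). The upstream bases of the beta-casein gene and of 1 alpha-casein gene are given from RefSeq (GRCm38.p6), since their levels followed each other across the 3 mice, with the STAT5 motif in capitals. They are Csn1s1 at chr5:87665958-87666207 on the + strand, 100 bases upstream, and Csn2 at chr5:87699426-87699675 on the - strand, 93 bases upstream.
Csn1s1: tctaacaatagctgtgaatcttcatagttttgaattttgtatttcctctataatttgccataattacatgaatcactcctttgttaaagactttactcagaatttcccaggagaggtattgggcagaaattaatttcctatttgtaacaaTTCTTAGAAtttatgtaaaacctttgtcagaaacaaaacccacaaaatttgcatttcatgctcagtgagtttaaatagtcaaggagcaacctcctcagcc
Csn2: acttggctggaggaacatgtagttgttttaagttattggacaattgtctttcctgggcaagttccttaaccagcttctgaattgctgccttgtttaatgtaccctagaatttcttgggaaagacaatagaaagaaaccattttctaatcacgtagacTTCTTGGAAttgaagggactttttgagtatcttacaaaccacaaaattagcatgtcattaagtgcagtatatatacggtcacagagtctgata

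Of the prolactin pathway itself, 2 of 14 members were higher in LP, 5 lower, and the median was -0.32. Over all genes 19.3% were higher and 21.7% lower. The receptor Prlr stood at 418, 570 and 415 CPM in LP, against 2.34, 6.17 and 3.67 CPM in basal cells (log2 fold change 6.89 ± 0.47, adjusted p = 1.3e-08). Prlr is also an ML marker, and LP had 8.21, 10.3 and 8.68% of its ML level in the same mice. The part of ML cells in the LP value was not tested. Stat5b was also higher in LP (1.85 ± 0.29, adjusted p = 9.2e-05). The feedback inhibitor Socs3 stood at 129, 192 and 86.3 CPM in LP, against 278, 1241 and 1283 CPM in basal cells (-2.68 ± 0.42, adjusted p = 1.0e-04), and the caveolin Cav1 was lower as well (-3.73 ± 0.42, adjusted p = 2.9e-06).

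Most hormone-sensing genes were higher in LP than in basal cells, at a small share of their level in ML cells. Of 16 ML markers tested, 12 were higher in LP, 2 lower, and the median was 3.37. Their summed level was 843 to 1190 CPM in LP and 130 to 165 CPM in basal cells, and 10035 to 12388 CPM in ML cells. The oestrogen receptor Esr1 stood at 32.3, 31.2 and 17.1 CPM in LP and 9.30, 14.9 and 12.6 CPM in basal cells (log2 fold change 1.09 ± 0.38, adjusted p = 0.032), and at 267, 259 and 166 CPM in ML cells. The Esr1 call was lost without mouse 1 and without mouse 2 (adjusted p up to 0.23). The ErbB ligand Areg stood at 121, 139 and 64.5 CPM in LP and 14.3, 4.05 and 2.54 CPM in basal cells (4.16 ± 0.39, adjusted p = 4.2e-07). In ML cells Areg stood at 1520, 1754 and 725 CPM.

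The share of the ML level found in LP varied less from marker to marker than the share found in basal cells. Over the 13 markers with at least 10 CPM in every ML library, LP stood at 4.09% to 17.3% of ML of the same mouse, with medians of 8.21%, 9.41% and 8.9% in mice 1, 2 and 3. In basal cells the same markers ranged more widely, at 0.0459% to 30.4% of the ML level, with medians of 2.2%, 0.931% and 1.28%. The progesterone receptor Pgr stood at 9.52%, 10.2% and 12.1% of its ML level in LP and 2.2%, 5.37% and 12.3% in basal cells. Tbx3 stood at 10.8%, 17.3% and 12.6% in LP and 10.9%, 15.9% and 24.3% in basal cells. Calca, the calcitonin gene, varied by mouse in both, at 0.123, 65.7 and 115 CPM in LP and 4.43, 780 and 1774 CPM in ML cells, against at most 0.897 CPM in basal cells. How far ML cells within the LP gate take part in these values was not tested. Wnt5a (-1.30 ± 0.42, adjusted p = 0.020) and the oestrogen-induced gene Greb1 were the members lower in LP. Greb1 stood at 0.247, 0.222 and 0 CPM in LP, against 11.2, 40.6 and 18 CPM in basal cells, and was not an ML gene here (3.17, 0.334 and 0.171 CPM).

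**Figure D3:**
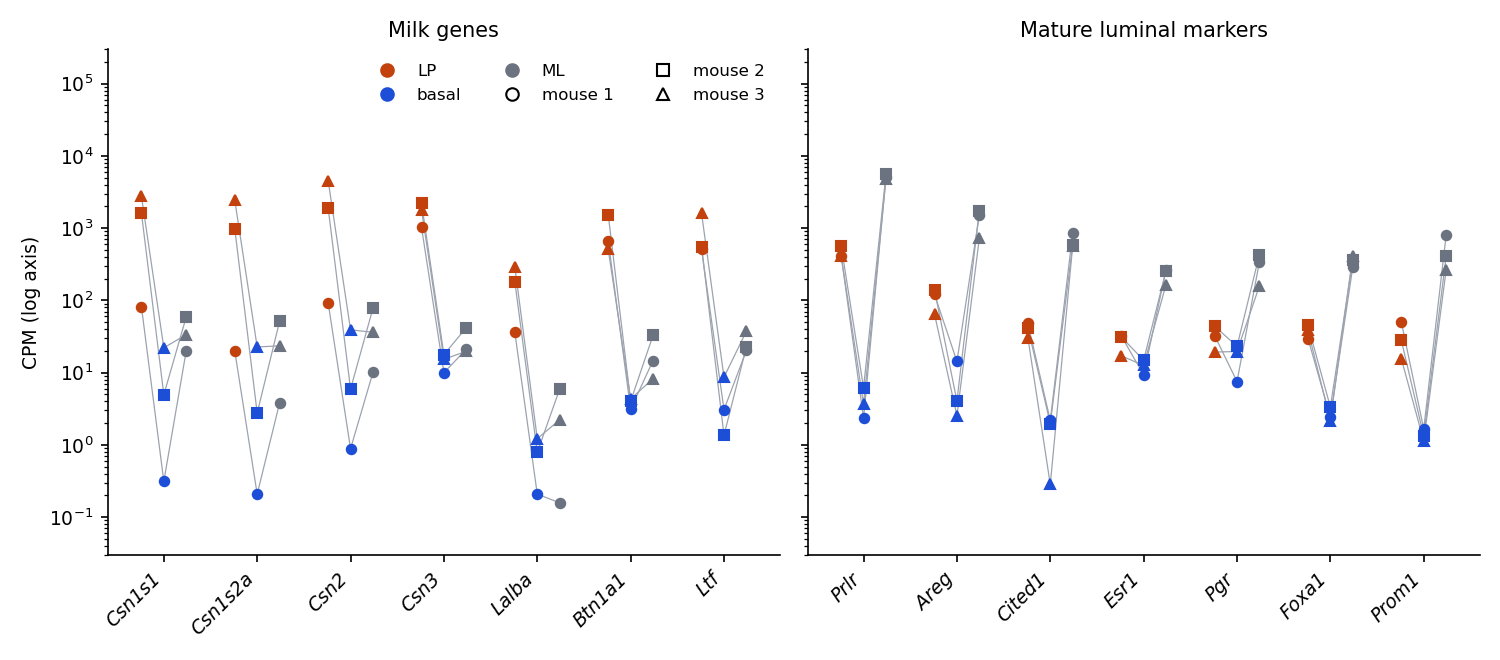
Level in CPM (log axis) of 7 milk genes (left) and 7 mature luminal markers (right) in WT LP (orange), WT basal (blue) and WT ML (grey) libraries, with lines joining the libraries of a mouse (circle, square and triangle for mice 1, 2 and 3). Milk genes peak in LP, with Csn2 at 93.1 CPM in mouse 1 and 4565 CPM in mouse 3, and the mature luminal markers peak in ML with LP at 4.09% to 17.3% of that level over the markers compared.

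Innate defence genes were mostly higher in LP: 20 of 30 were higher, 5 lower, and the median was 2.00. Cd14, the lipopolysaccharide co-receptor, stood at 553, 561 and 568 CPM in LP, against 13.8, 13.0 and 8.10 CPM in basal cells (log2 fold change 5.58 ± 0.43, adjusted p = 4.0e-08). The chemokine Cxcl15 (6.76 ± 0.45, adjusted p = 1.2e-08) and the cytokine Tnf (6.10 ± 0.42, adjusted p = 1.4e-08) were also higher. A few secreted defence proteins belonged to basal cells. The protease inhibitor Slpi stood at 89.7, 23.1 and 18.3 CPM in LP, against 2897, 1217 and 1411 CPM in basal cells (-5.50 ± 0.69, adjusted p = 9.3e-06). The chitinase-like protein Chil1 stood at 74.1, 177 and 199 CPM in LP, against 1832, 2335 and 2313 CPM in basal cells (-3.91 ± 0.42, adjusted p = 1.8e-06). Tlr2 was lower by a smaller margin (-0.90 ± 0.26, adjusted p = 0.011), and Camp, with 0 counts in LP and 25 in basal cells, was at least 4.82-fold lower.

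Ion and water transport genes were also more often higher in LP than lower, with 11 of 20 members higher, 3 lower and a median of 1.78. Atp6v1b1, a proton pump subunit typical of acid-secreting epithelia, stood at 1030, 1060 and 662 CPM in LP, against 10.5, 13.7 and 11.4 CPM in basal cells (log2 fold change 6.26 ± 0.40, adjusted p = 6.5e-09). The sodium-glucose transporter Slc5a1 (7.60 ± 0.55, adjusted p = 2.2e-08), the chloride channel family member Clcn3 (3.78 ± 0.28, adjusted p = 2.8e-08) and the sodium pump beta subunit Atp1b1 (3.86 ± 0.29, adjusted p = 3.0e-08) were higher. The sodium channel subunit Scnn1g was lower in LP (-2.17 ± 0.71, adjusted p = 0.023).

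In the Notch pathway, where a ligand on 1 cell activates a receptor on its neighbour, 8 of 24 members were higher in LP and 10 lower, with a median of -0.44. The ligand Dll1 stood at 6.54, 9.23 and 5.52 CPM in LP, against 801, 727 and 652 CPM in basal cells (log2 fold change -6.68 ± 0.38, adjusted p = 2.3e-09). The ligand Jag1 stood at 14.6, 14.8 and 15.7 CPM in LP, against 1220, 351 and 430 CPM in basal cells (-5.34 ± 0.42, adjusted p = 5.8e-08), and Jag2 had -6.82 ± 0.38 (adjusted p = 2.2e-09). All 3 ligands were basal, with mouse 1 highest for Jag1.

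The receptors Notch1, Notch2 and Notch3 and the response genes Hes1, Hey1 and Nrarp ran the other way. These are among the 8 members higher in LP, and Hey1 and Notch2 were chosen after their values were seen. Beyond the 3 ligands, the 10 lower members include others not named here, the lowest at -9.02. The named genes therefore do not describe all receptors and response genes of the list. Notch3 stood at 238, 273 and 209 CPM in LP, against 9.30, 8.18 and 10.2 CPM in basal cells (log2 fold change 4.71 ± 0.32, adjusted p = 1.4e-08), and Notch1 at 230, 556 and 535 CPM in LP, against 98.8, 128 and 116 CPM in basal cells (1.89 ± 0.30, adjusted p = 1.1e-04). Notch2 was higher by a smaller margin (0.65 ± 0.21, adjusted p = 0.022), a call lost without the mouse block, without mouse 1 and without mouse 2 (adjusted p up to 0.19). Hes1, a repressor induced by Notch, stood at 305, 374 and 614 CPM in LP, against 49.6, 36.2 and 72.3 CPM in basal cells (3.03 ± 0.25, adjusted p = 1.2e-07). Hey1 (2.30 ± 0.43, adjusted p = 4.3e-04) and the feedback gene Nrarp (1.90 ± 0.28, adjusted p = 5.8e-05), both targets of the pathway, were higher as well.

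The ErbB family, which binds growth factors related to EGF, was divided member by member: 6 of 14 were higher in LP, 5 lower, and the median was 0.82. Among receptors, Erbb3 stood at 112, 146 and 188 CPM in LP, against 8.52, 5.45 and 8.38 CPM in basal cells (log2 fold change 4.31 ± 0.45, adjusted p = 1.2e-06). Erbb4 (6.87 ± 0.96, adjusted p = 2.8e-05) and Erbb2 (1.73 ± 0.24, adjusted p = 2.3e-05) were also higher, while Egfr was lower, at 151, 154 and 127 CPM in LP against 180, 275 and 308 CPM in basal cells (-0.81 ± 0.30, adjusted p = 0.044). The Egfr call passed in 9 of 12 alternative settings. Among ligands, Btc stood at 16.7, 24.6 and 18.4 CPM in LP, against 0.156, 0.179 and 0.0942 CPM in basal cells (7.04 ± 0.39, adjusted p = 2.2e-09), on the same side as Areg. Ereg, at 1.11, 0 and 0.184 CPM in LP against 44.0, 57.3 and 19.2 CPM in basal cells (-6.61 ± 0.56, adjusted p = 1.2e-07), was a basal ligand. Nrg1, a ligand of Erbb3 and Erbb4, was likewise basal (-4.72 ± 0.62, adjusted p = 1.6e-05), with LP of mouse 1 at 10.4 CPM and the other LP libraries below 1 CPM. Tgfa (-2.37 ± 0.51, adjusted p = 0.0015) and Nrg2 (-1.75 ± 0.63, adjusted p = 0.037) were lower in LP too.

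**Figure D4:**
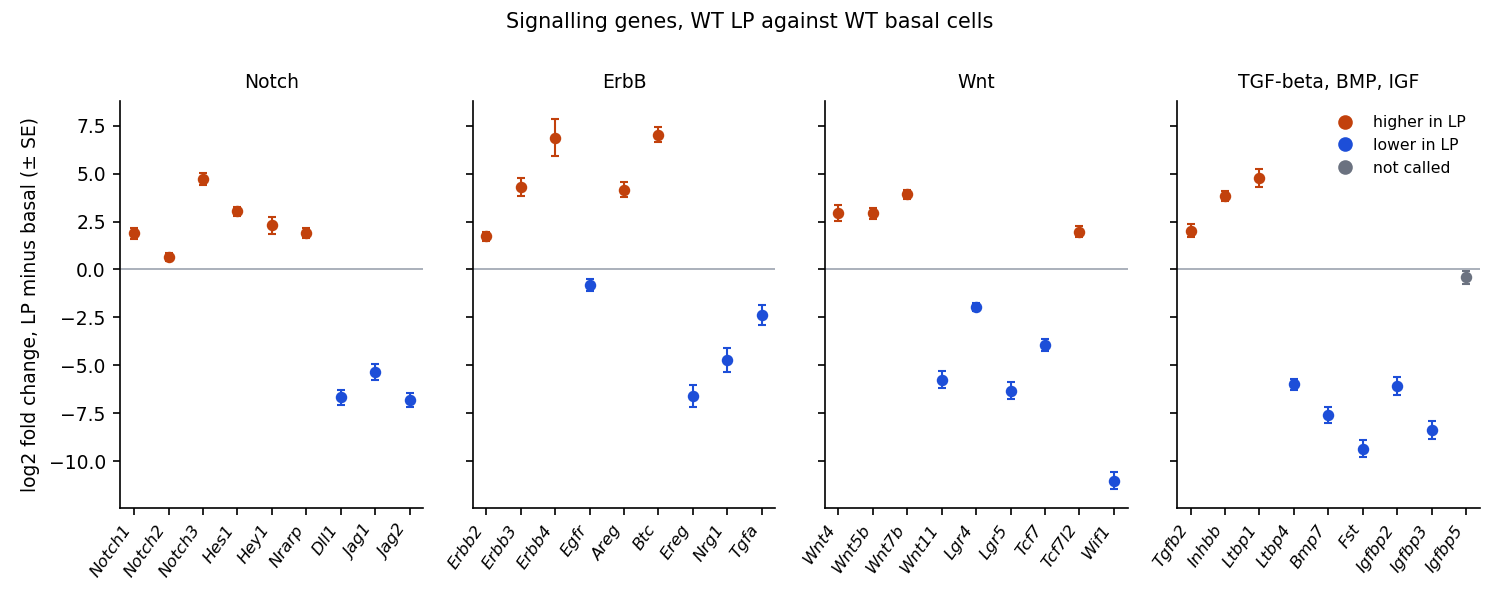
Log2 fold change of WT LP minus WT basal cells with its SE (vertical axis) for signalling genes of 4 pathways, n = 3 mice, coloured by call. The Notch receptors and response genes shown lie above 0 and the ligands Dll1, Jag1 and Jag2 below it, and Wif1 is the lowest point shown at -11.02.

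Wnt genes, which govern basal stem cell behaviour in this gland, were mostly lower in LP, with ligands on both sides. Of 12 ligands tested out of 20 listed, 4 were higher in LP and 7 lower, with a median of -2.30. Wnt10a had 1 count over the LP libraries and 5560 over the basal libraries, 3218-fold lower in LP (95% counting interval 577 to 127126). Wnt11 stood at 2.10, 2.33 and 0.674 CPM in LP, against 96.7, 65.8 and 84.3 CPM in basal cells (log2 fold change -5.75 ± 0.45, adjusted p = 5.3e-08). The LP ligands were Wnt5b, at 326, 207 and 189 CPM against 30.4, 25 and 38.2 CPM in basal cells (2.93 ± 0.28, adjusted p = 5.7e-07), with Wnt7b (3.93 ± 0.23, adjusted p = 3.4e-09) and Wnt4 (2.95 ± 0.43, adjusted p = 4.1e-05). Wnt4 is also an ML marker, and LP had 13.6, 11.6 and 15.7% of its ML level in the same mice. Rspo1, which amplifies Wnt signals through Lgr receptors, was higher in LP and varied by mouse, at 15.1, 66.7 and 171 CPM against 1.71, 2.51 and 5.18 CPM in basal cells (4.37 ± 0.49, adjusted p = 2.8e-06).

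Wnt receptors and feedback genes lay on the basal side. Of 19 receptors and co-receptors, 13 were lower in LP and 0 higher, with a median of -1.24. Lgr5, a receptor for R-spondins, stood at 1.36, 4.11 and 0.919 CPM in LP, against 146, 156 and 147 CPM in basal cells (log2 fold change -6.33 ± 0.45, adjusted p = 1.8e-08). Lgr4, of the same family, was far less divided (-1.97 ± 0.22, adjusted p = 2.6e-06), as was the frizzled Fzd1 (-1.61 ± 0.23, adjusted p = 4.0e-05). Procr, a mark of basal stem cells rather than a Wnt receptor, was lower in LP and uneven among basal libraries. It stood at 3.08, 0.778 and 1.10 CPM in LP against 80.9, 21.5 and 13.8 CPM in basal cells (-4.47 ± 0.59, adjusted p = 1.6e-05). Of 18 inhibitors, feedback genes and TCF factors, 13 were lower in LP and 1 was higher, with a median of -3.88, or -3.60 with the member at 0 counts set at its bound. The secreted inhibitor Wif1 stood at 0, 0 and 0.245 CPM in LP, against 150, 305 and 269 CPM in basal cells (-11.02 ± 0.45, adjusted p = 1.3e-10). Dkk3 (-6.31 ± 0.40, adjusted p = 6.4e-09) and the factor Tcf7 (-3.95 ± 0.32, adjusted p = 8.9e-08) were lower, and Nkd1 had 3 counts in LP and 2782 in basal cells, 537-fold lower in LP (183 to 2604). Tcf7l2 was the exception, at 97.7, 365 and 175 CPM in LP against 25.4, 67.8 and 62.6 CPM in basal cells (1.97 ± 0.28, adjusted p = 3.3e-05).

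In the TGF-beta and BMP pathway 5 of 34 members were higher in LP and 19 lower, with a median of -1.0. The activin antagonist Fst stood at 1.48, 1.00 and 1.16 CPM in LP, against 1161, 847 and 447 CPM in basal cells (log2 fold change -9.35 ± 0.45, adjusted p = 4.7e-10), while Inhbb, a subunit of activin, stood at 138, 253 and 191 CPM in LP, against 18.1, 11 and 12.1 CPM in basal cells (3.82 ± 0.27, adjusted p = 2.2e-08). The ligand and its antagonist therefore lay in different layers. The latent TGF-beta binding proteins were divided likewise: Ltbp4 stood at 3.95, 3.11 and 3.49 CPM in LP, against 196, 203 and 276 CPM in basal cells (-6.00 ± 0.27, adjusted p = 3.4e-10), and Ltbp1 at 253, 354 and 307 CPM in LP, against 10.9, 7.71 and 16.8 CPM in basal cells (4.78 ± 0.47, adjusted p = 7.5e-07). Bmp7 was lower in LP (-7.59 ± 0.43, adjusted p = 2.3e-09). Tgfb2 (2.03 ± 0.33, adjusted p = 1.3e-04) and the BMP receptor Bmpr1b (1.96 ± 0.41, adjusted p = 0.0011) were higher.

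IGF binding proteins, which hold insulin-like growth factors outside the cell, were largely basal. Of 12 members of the IGF axis, 5 were lower in LP and 1 was higher, with a median of -0.65. Igfbp3 stood at 10.2, 2.78 and 3.31 CPM in LP, against 2910, 1110 and 1195 CPM in basal cells (log2 fold change -8.38 ± 0.47, adjusted p = 2.1e-09). Igfbp2 (-6.07 ± 0.48, adjusted p = 6.0e-08), Igfbp4 (-4.71 ± 0.39, adjusted p = 9.1e-08) and Igfbp7 (-4.37 ± 0.31, adjusted p = 1.8e-08) were lower as well. Igfbp5, among the 5 genes that took the most reads in basal cells, stood at 3105, 9588 and 4019 CPM in LP and 4715, 8330 and 6660 CPM in basal cells and did not pass the test (-0.41 ± 0.33, adjusted p = 0.35). The adaptor Irs1 was the member higher in LP (1.63 ± 0.45, adjusted p = 0.0079).

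In FGF signalling 11 of 14 members were lower in LP and 0 higher, with a median of -1.85. The ligands Fgf1 (log2 fold change -3.78 ± 0.41, adjusted p = 2.0e-06) and Fgf2 (-6.25 ± 0.71, adjusted p = 8.5e-06) and the response genes Spry1 (-2.87 ± 0.34, adjusted p = 5.1e-06) and Etv4 (-2.78 ± 0.33, adjusted p = 4.6e-06) had the lowest p. Etv4 stood at 3.82, 4.0 and 3.31 CPM in LP, against 14.2, 25.2 and 42.6 CPM in basal cells.

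Guidance cues, best known from axons and used in this gland to hold the layers together, were mostly basal: 23 of 34 were lower in LP, 5 higher, and the median was -1.53. Slit3 stood at 0.617, 0.667 and 0.368 CPM in LP, against 102, 124 and 118 CPM in basal cells (log2 fold change -7.76 ± 0.40, adjusted p = 9.9e-10), and Slit2 was close to it (-7.69 ± 0.55, adjusted p = 2.1e-08). Netrin 1 (Ntn1) was the reverse, at 399, 401 and 365 CPM in LP against 19.9, 14.3 and 27.4 CPM in basal cells (4.30 ± 0.29, adjusted p = 1.4e-08). The other members higher in LP among those named were Sema3e (2.12 ± 0.46, adjusted p = 0.0017), Plxnb1 (0.97 ± 0.26, adjusted p = 0.0064) and Efna1 (0.61 ± 0.18, adjusted p = 0.011). Sema5a was lower (-4.08 ± 0.41, adjusted p = 7.5e-07).

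Genes of YAP and TEAD, the effectors of Hippo signalling and of mechanical tension, numbered 12 lower and 4 higher in LP out of 20, with a median of -1.13. Yap1 stood at 130, 130 and 179 CPM in LP, against 589, 507 and 425 CPM in basal cells (log2 fold change -1.79 ± 0.21, adjusted p = 4.6e-06). The receptor Axl (-6.31 ± 0.38, adjusted p = 3.6e-09) and the YAP-binding phosphatase Ptpn14 (-4.02 ± 0.32, adjusted p = 6.9e-08) were lower. Tead2 (2.24 ± 0.24, adjusted p = 1.9e-06) and Tead4 (3.34 ± 0.69, adjusted p = 0.0011) were higher in LP, Tead4 with mouse 1 at 37.0 CPM and the other LP libraries at 5.56 and 1.90 CPM. The classic target Ccn1 was also higher in LP, at 1380, 2759 and 1391 CPM against 225, 450 and 442 CPM in basal cells (2.31 ± 0.33, adjusted p = 4.2e-05).

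Cell cycle genes were higher in LP, at low levels: 21 of 39 were higher, 4 lower, and the median was 1.24. The mitotic kinase Aurkb had 112 counts over the LP libraries and 1 over the basal libraries, 194-fold higher in LP (95% counting interval 34.0 to 7711). Cdk1 stood at 4.56, 4.56 and 5.33 CPM in LP, against 0.364, 0.538 and 0.188 CPM in basal cells (log2 fold change 3.57 ± 0.42, adjusted p = 4.9e-06), and the spindle checkpoint kinase Bub1 was higher too (5.14 ± 0.59, adjusted p = 3.8e-06). The D-type cyclins were exchanged. Ccnd1 stood at 267, 520 and 760 CPM in LP, against 64.6, 38.9 and 50.3 CPM in basal cells (3.20 ± 0.38, adjusted p = 4.9e-06), and Ccnd2 at 0.740, 0.334 and 0.123 CPM in LP, against 73.7, 113 and 162 CPM in basal cells (-8.39 ± 0.45, adjusted p = 1.5e-09). The cell cycle inhibitor Cdkn1c (-3.18 ± 0.44, adjusted p = 2.6e-05), Ccne1 (-2.09 ± 0.51, adjusted p = 0.0036) and the replication clamp Pcna (-0.91 ± 0.19, adjusted p = 9.9e-04) were lower in LP.

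Retinoid genes had 3 of 18 members higher in LP and 5 lower, with a median of -0.08, shares near the 19.3% higher and 21.7% lower among all genes. The retinaldehyde dehydrogenase of LP was Aldh1a3, at 787, 267 and 319 CPM against 6.86, 4.41 and 11.1 CPM in basal cells (log2 fold change 5.83 ± 0.45, adjusted p = 4.1e-08). The related Aldh1a1 stood at 1.23, 0.222 and 0.368 CPM in LP, against 5.56, 12.4 and 9.89 CPM in basal cells (-4.09 ± 0.65, adjusted p = 1.0e-04). Of the other retinoid genes, Dhrs3 (2.30 ± 0.37, adjusted p = 1.1e-04) and Crabp2 (1.74 ± 0.34, adjusted p = 6.2e-04) were higher.

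Lipid synthesis showed no common direction. Of 23 genes of fatty acid and triglyceride synthesis, 7 were higher in LP and 4 lower, with a median of 0.14. Scd1, which desaturates fatty acids, stood at 779, 299 and 599 CPM in LP, against 25.4, 77.2 and 52.1 CPM in basal cells (log2 fold change 3.50 ± 0.45, adjusted p = 1.2e-05). Lpl, Lpin1 and Me1 were higher in LP, with log2 fold changes of 3.33, 2.27 and 1.71, while fatty acid synthase itself, Fasn, was lower, at 272, 270 and 414 CPM in LP against 684, 586 and 448 CPM in basal cells (-0.86 ± 0.26, adjusted p = 0.014). In mouse 3 the Fasn values lay close together, and the call was lost without mouse 1, without mouse 2 and in the fit on 6 libraries with no mouse block (adjusted p up to 0.14). Elovl5 (-0.73 ± 0.20, adjusted p = 0.0074), Scd2 (-1.01 ± 0.38, adjusted p = 0.042) and the fat cell marker Fabp4 (-1.04 ± 0.35, adjusted p = 0.024) were lower too. Cholesterol synthesis had 2 higher and 3 lower of 17, with a median of 0.05. Neither share exceeded the 19.3% higher and 21.7% lower over all genes. There Dhcr7 (2.36 ± 0.28, adjusted p = 5.8e-06) and Mvd (1.11 ± 0.31, adjusted p = 0.0090) were higher and Cyp51 (-1.28 ± 0.29, adjusted p = 0.0024) was lower.

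Housekeeping lists were close to level. Of 48 cytosolic ribosomal protein genes, 1 was higher in LP (Rpl10, log2 fold change 0.92 ± 0.22, adjusted p = 0.0031) and 2 were lower (Rps16 and Rpl27), with a median of -0.09. Of 44 genes of oxidative phosphorylation, 3 were higher (Sdha, Ndufa10 and Atp5c1, by 0.61 to 0.67) and 2 lower (Ndufa1 and Uqcrq, -1.30 and -0.92), with a median of -0.01. These shares are below the 41.1% called over all genes.

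Of 29 interferon-stimulated genes, 11 were higher in LP and 5 lower, with a median of 0.06. Over all genes 19.3% were higher and 21.7% lower, and only the share of higher genes exceeded this. The viral RNA sensor Ifih1 stood at 81.3, 105 and 92.9 CPM in LP, against 10.1, 24 and 20.2 CPM in basal cells (log2 fold change 2.41 ± 0.25, adjusted p = 1.1e-06), and the antiviral genes Rsad2 (2.81 ± 0.37, adjusted p = 1.8e-05) and Oas2 (3.40 ± 0.51, adjusted p = 6.2e-05) were on the same side. The transcription factors that carry the interferon signal were higher in basal cells: Stat2 stood at 23.4, 37.5 and 27.0 CPM in LP, against 85.8, 161 and 73.6 CPM in basal cells (-1.81 ± 0.22, adjusted p = 6.2e-06), and Irf9 (-1.33 ± 0.25, adjusted p = 5.0e-04) and Irf1 (-1.09 ± 0.33, adjusted p = 0.016) were lower in LP. Oas1a was lower as well (-1.25 ± 0.37, adjusted p = 0.013).

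Immediate early genes, which respond to cell handling as well as to growth factors, were abundant in both populations. Of 25 immediate early and heat shock genes, 11 were higher in LP and 1 lower, with a median of 0.54, and their summed level was 33333 to 70597 CPM in LP and 12829 to 34029 CPM in basal cells. Klf6 stood at 4598, 8959 and 5543 CPM in LP, against 706, 1017 and 1050 CPM in basal cells (log2 fold change 2.75 ± 0.23, adjusted p = 9.2e-08), and Jun at 2155, 6368 and 4596 CPM in LP, against 493, 1132 and 1504 CPM in basal cells (2.08 ± 0.28, adjusted p = 2.2e-05). Ier2 (1.39 ± 0.25, adjusted p = 3.7e-04) and Zfp36 (1.41 ± 0.27, adjusted p = 5.6e-04) were higher too, and Nr4a2 was the member lower in LP (-1.12 ± 0.34, adjusted p = 0.015). Mouse 1 had the lowest value of Jun and of Klf6 in both populations. The part of dissociation and sorting in these values was not tested.

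Among the largest rises in LP were mucins, transporters and other surface or secreted proteins. Fcgbp, a mucin-like protein, stood at 6665, 11688 and 11408 CPM in LP, against 17.3, 16.7 and 46.9 CPM in basal cells (log2 fold change 8.64 ± 0.55, adjusted p = 7.0e-09). It was among the 5 genes that took the most reads in LP, with Ahnak, the mitochondrial COX1, Fosb and Eef1a1. The nucleoside transporter Slc28a3 stood at 925, 124 and 84.4 CPM in LP, against 1.14, 0.215 and 0.188 CPM in basal cells (9.36 ± 0.69, adjusted p = 2.9e-08), and the membrane mucin Muc4 at 987, 294 and 170 CPM in LP, against 2.70, 0.323 and 0.283 CPM in basal cells (8.97 ± 0.78, adjusted p = 1.8e-07). Both were highest in mouse 1, the mouse with the lowest caseins. Klk11, Esm1, Rasef, Cytip and Bglap3 were among the 15 largest rises as well, with log2 fold changes of 7.84 to 8.10, and Bglap3 has near copies that may share its reads. The others had few basal counts, so that ratios are given: Igsf5 was 874-fold higher in LP (95% counting interval 156 to 34599, 1 basal count), Tmc5 325-fold (111 to 1583) and the neurokinin receptor Tacr3 175-fold (59.1 to 851).

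Most of the largest falls had 0 counts in all 3 LP libraries, so their size is a lower bound, computed with 3 counts set as the total of the LP group. The collagen Col6a4 stood at 60.0, 31.0 and 88.7 CPM in basal cells and was at least 571-fold lower in LP. Brinp3 was at least 410-fold lower, Capn6 383-fold, Slc2a13 346-fold, Ptprt 316-fold, the metalloprotease Adam12 259-fold, Mill1 213-fold, Gask1b 187-fold and Popdc2 168-fold. The paralogues Speer4c, Speer4d and Speer4e were at least 380-fold to 413-fold lower, and reads may have been shared between these near-identical copies. The matrix proteoglycan Fmod had 1 count in LP and 7357 in basal cells, 4258-fold lower (95% counting interval 764 to 168205), and the secreted protein reelin, Reln, 2 and 11096, 3211-fold lower (889 to 26518). The gene that took the most reads in basal cells was Thbs1, a matrix glycoprotein, at 2081, 2421 and 2304 CPM in LP and 8417, 14710 and 11545 CPM in basal cells (log2 fold change -2.34 ± 0.40, adjusted p = 2.3e-04). COX1, an identifier with no symbol in the tables used, Igfbp5 and Krt14 came next.

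**Figure D5:**
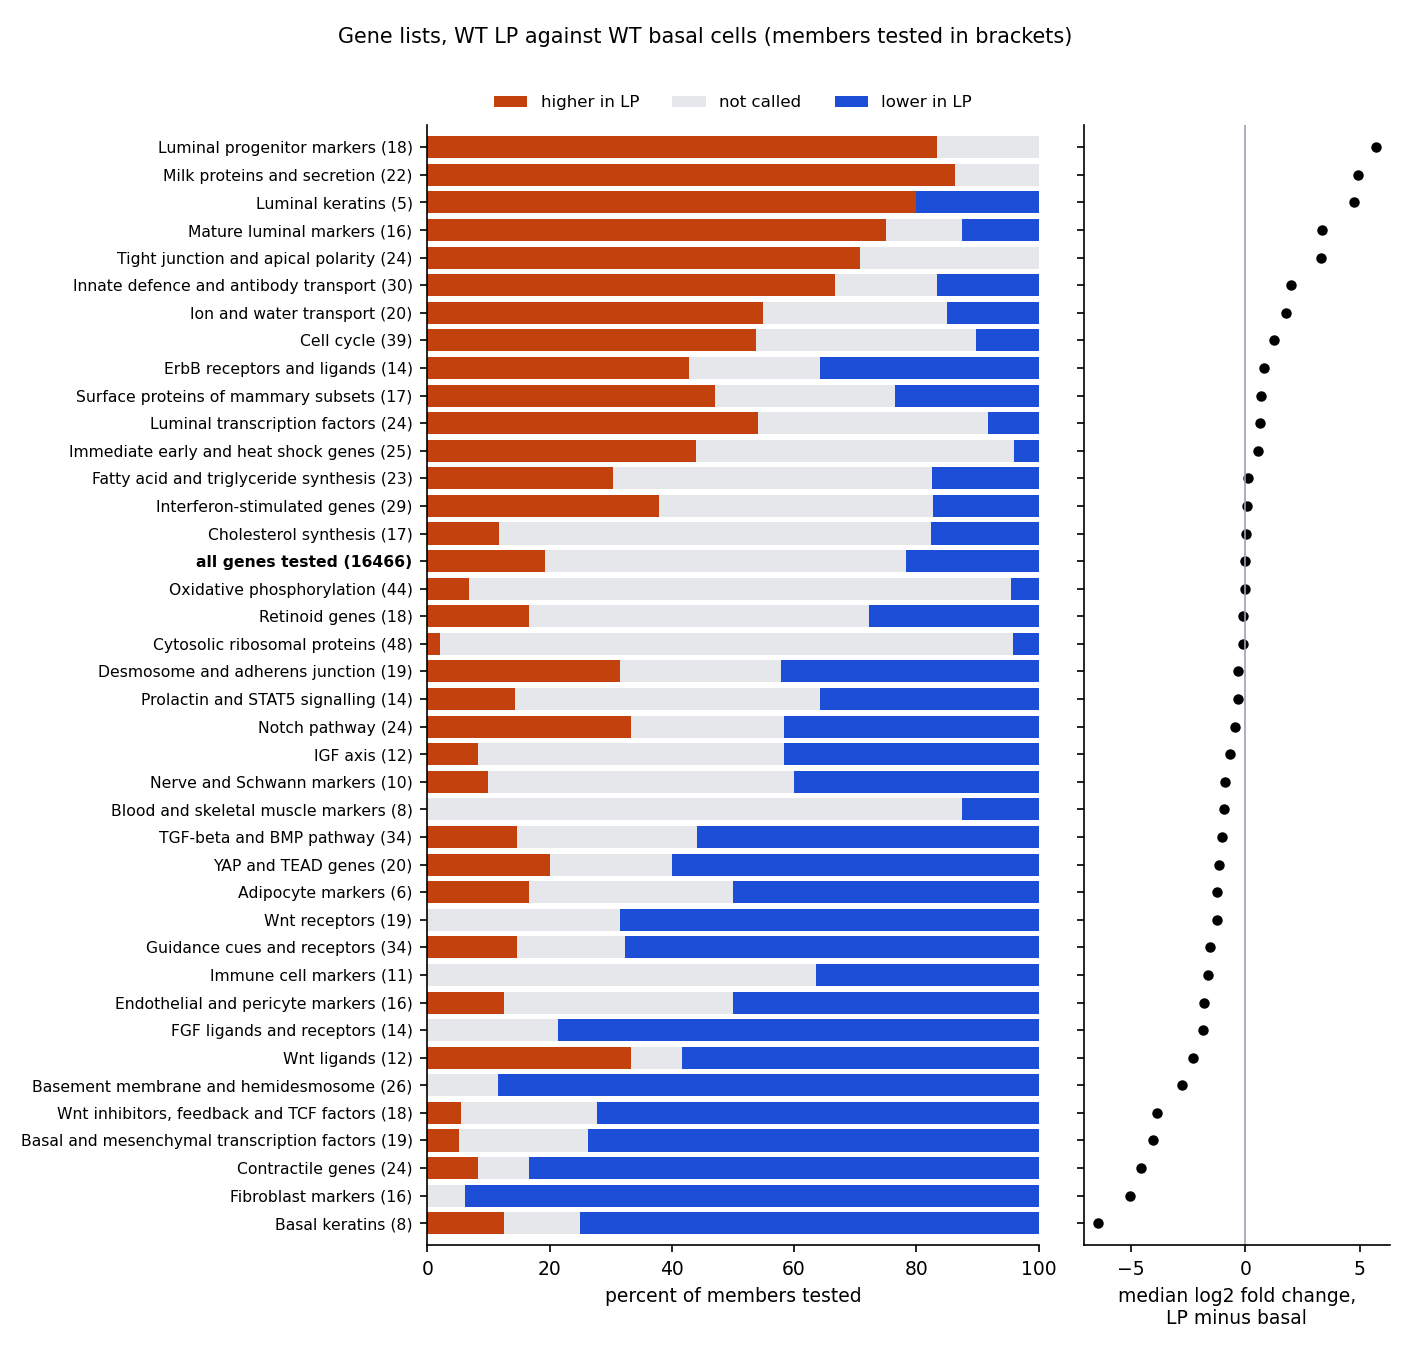
Share of the tested members of each gene list that were higher (orange), not called (grey) or lower (blue) in WT LP than in WT basal cells (left), and the median log2 fold change of the list (right), in order of the median. Luminal progenitor markers lie at the top with a median of 5.71 and basal keratins at the bottom with -6.44, and all genes tested (bold) have 19.3% higher and 21.7% lower.

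Markers of other cell types were read in both populations, and the population with the higher sum differed by cell type. Of 16 fibroblast markers, 15 were lower in LP and 0 higher, with a median of -5.02. Postn, periostin, made up most of their sum, at 24.8, 8.45 and 9.69 CPM in LP against 2238, 1673 and 3660 CPM in basal cells (log2 fold change -7.72 ± 0.58, adjusted p = 3.5e-08). Without Postn the other 15 summed to 37.5 to 63.2 CPM in LP and 663 to 771 CPM in basal cells. Among them Col5a1 (-8.25 ± 0.43, adjusted p = 1.1e-09), Col6a1 (-5.62 ± 0.45, adjusted p = 6.7e-08) and Fbln1 (-6.40 ± 0.47, adjusted p = 2.9e-08) had the lowest p. None of the 16 was at 0 in basal cells: Pdgfra stood at 5.80, 13.8 and 5.76 CPM in LP and 16.9, 25 and 23.6 CPM in basal cells, and Col1a1 at 9.75, 1.67 and 1.53 CPM in LP and 35.8, 27.7 and 38.0 CPM in basal cells. Their part in the basal profile was not tested.

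Immune markers were near the floor. Of 24 listed, 11 passed the filter on low counts, of which 4 were lower in LP and 0 higher, and the leukocyte marker Ptprc had 1 count over the LP libraries and 12 over the basal libraries. The 11 summed to 19.8 to 24.2 CPM in LP and 43.6 to 105 CPM in basal cells. The lower ones were the antigen presentation genes Cd74 (log2 fold change -2.65 ± 0.44, adjusted p = 1.5e-04), H2-Aa (-2.58 ± 0.72, adjusted p = 0.0093) and H2-Ab1 (-1.61 ± 0.54, adjusted p = 0.026), and Coro1a, with 2 counts in LP and 53 in basal cells, 15.3-fold lower in LP (95% counting interval 4.04 to 130). Endothelial and pericyte markers had 2 of 16 higher in LP and 8 lower, beside 19.3% and 21.7% over all genes, with a median of -1.81. They summed to 246 to 321 CPM in LP, most of it Notch3, against 92.9 to 175 CPM in basal cells. Eng (-3.25 ± 0.33, adjusted p = 1.0e-06) and Cspg4 (-5.22 ± 0.57, adjusted p = 2.2e-06) were lower, and Vwf was higher in LP (1.60 ± 0.32, adjusted p = 7.4e-04). Among 6 adipocyte markers tested, 3 were lower in LP and 1 higher, with a median of -1.22. The higher one was Lipe (1.39 ± 0.27, adjusted p = 6.8e-04). These 6 summed to 35.2 to 68.8 CPM in LP and 29.0 to 45.9 CPM in basal cells. Blood and skeletal muscle markers summed to 2.96 to 5.33 CPM in LP and 4.05 to 19.1 CPM in basal cells. Of 10 nerve and Schwann markers, 4 were lower in LP and 1 higher, and they summed to 258 to 359 CPM in LP and 338 to 533 CPM in basal cells. Among these Ngfr had 2 counts in LP and 765 in basal cells, 221-fold lower in LP (61.1 to 1831), Pmp22 was lower (-3.69 ± 0.34, adjusted p = 3.6e-07), and Sox10 stood at 158, 131 and 193 CPM in LP and 173, 83.5 and 96.7 CPM in basal cells, with no call (0.48 ± 0.29, adjusted p = 0.20).

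Surface proteins used to sort mammary subsets were divided, with 8 of 17 higher in LP, 4 lower and a median of 0.68. Beside Kit and Cd14, Ly6d was higher, at 152, 169 and 56.3 CPM in LP against 5.77, 3.87 and 2.73 CPM in basal cells (log2 fold change 4.89 ± 0.28, adjusted p = 2.3e-09). The integrins Itga6 and Itgb1, adhesion receptors for the basement membrane, were lower in LP but far from absent. Itga6 stood at 389, 234 and 216 CPM in LP, against 1049, 943 and 951 CPM in basal cells (-1.86 ± 0.36, adjusted p = 5.5e-04), and Itgb1 at 891, 576 and 502 CPM in LP, against 1530, 1261 and 1279 CPM in basal cells (-1.08 ± 0.20, adjusted p = 3.7e-04). Both differences were small beside those of Kit, Krt5 or Myh11.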

How the data were processed

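Total RNA was extracted with a miRNeasy micro kit and made into TruSeq RNA v2 libraries, per the labels' protocols. The authors deposited raw read counts per gene. The submitters' processing notes name featureCounts and the mm10 build. Neither labels nor headers give the aligner, annotation, versions or strand setting, and without strand, reads of overlapping genes cannot be told apart. Each of the 18 single-library files matched its column of the table for the series. Of 27179 gene identifiers, a symbol was found for 25275.

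From these counts, edgeR 4.0.16 in R 4.3.3 (filterByExpr, TMM, glmQLFit and glmQLFTest) was fitted to all 18 libraries with 1 term per mouse and the population means of each genotype. The contrast is LP minus basal in WT mice. P-values were adjusted by Benjamini-Hochberg over the 16466 genes that passed the filter, with a threshold of 0.05. The biological coefficient of variation was 26.4%. The SE is the fold change divided by the square root of its F. The script was tested on simulated data. RPKM divides CPM by the deposited gene length. Where a group had 0 counts, folds use a floor of 3 counts over the group, and with 1 to 3 counts the ratio has a 95% exact interval, which covers counting error only. Total counts of 9.29 to 33.49 M limit low genes most.

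Libraries of a mouse share its number, per the labels. Same-mouse r was 0.334, 0.219 and 0.216, and -0.268 to 0.102 between mice. No library repeated another of its group (chi-square per degree of freedom 44.25 to 178.5).

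The comparison, its 39 gene lists and the genes named were chosen with earlier results of these data known. The naming rule took the 15 largest rises and falls with at least 10 CPM and no overlap, 4 members of lowest p per list, up to 4 against its majority, the 5 most abundant genes per population, the label markers, and up to 3 genes per list whose promoter holds the motif searched. Glycam1, Wap, Gata3, Sox10, Ccnd1, Egfr, Erbb2, Erbb4, Esr1, Hey1, Notch2, Pdgfra, Ptprc and Col1a1 were chosen after their values were seen. Some genes the rule takes are not reported here. Of the lists' 804 genes, 761 were tested. Alternatives were RLE scaling, no filter on low counts, DESeq2 1.42.0, limma 3.58.1 voom, no mouse term, fits on 9 WT or 6 libraries, counts thinned to 1 depth, each mouse left out, and edgeR's glmTreat against a fold of 1.5. No paper was used.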

Additional observations from a re-analysis of the deposited data

Results flagged for a closer look

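The difference between LP and basal cells was not the same size in WT mice and in the Brca2 knockout mice of the series for 45 of the 236 genes named. The test was edgeR's quasi-likelihood test of the difference of the 2 contrasts, adjusted over all 16466 genes, of which 437 passed (2.65%). Values are the WT log2 fold change minus the knockout one. Among LP markers, milk genes and the largest rises, it was Kit 3.18, Ehf 2.63, Fcgbp 3.27, Slc28a3 3.90, Rasef 3.22 and Btn1a1 2.92. For junction proteins, keratin 19 and Ly6d it was Cldn7 2.04, Cldn8 3.47, Ocln 2.04, Marveld2 1.44, Pkp2 1.75, Krt19 1.62 and Ly6d 2.44. Among mature luminal markers and ErbB ligands it was Prlr 4.24, Calca 3.52, Areg 4.17, Esr1 2.26 and Btc 2.50. For basal, matrix and growth factor binding genes it was Mylk -3.30, Col6a1 -2.98, Postn -2.72, Igfbp7 -2.03, Igfbp5 1.87 and Lgr5 2.97. For signalling genes it was Hes1 1.39, Hey1 2.78, Bmpr1b 4.31 and Sema3e 2.84. For immediate early, immune and interferon genes it was Klf6 1.63, Jun 1.71, Zfp36 1.57, Fosb 2.05, Cxcl15 4.96, Tlr2 -1.80, Cd74 -3.16, Ifih1 2.17, Rsad2 2.03 and Oas1a -2.15. For mitotic genes at low levels it was Cdk1 2.27 and Bub1 4.03. For genes with few or 0 counts on 1 side, where the fitted size depends on the prior count, it was Adam12 -6.42, Capn6 -5.70, Gask1b -7.30, Aurkb 5.40 and Tacr3 4.37. In 41 of the 45 genes the WT difference was the larger in size, the exceptions being Bmpr1b, Esr1, Igfbp5 and Lgr5. In 10 the 2 genotypes had opposite signs, among them Esr1 (1.09 in WT and -1.18 in knockout mice) and Bmpr1b (1.96 in WT and -2.34 in knockout mice). The named genes were mostly chosen by their WT difference, which favours a larger WT size in the 41 of 45. The same count was not made over all 437 genes that passed. What sets the genotypes apart was not tested.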

How the results depend on the processing

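The counts of called genes kept within 1.5 times of 3184 higher and 3578 lower under RLE scaling, no filter on low counts, DESeq2, limma voom, fits on fewer libraries and thinning to 1 depth. Against a fold of 1.5, which asks more of each gene, 2052 genes were higher in LP and 2519 lower. With each mouse left out in turn, 2020 to 2769 genes were higher, 2597 to 3184 lower and 4227 to 4920 past a 2-fold difference, the lowest 3 counts without mouse 2. Without the mouse as a block (no pairing), 2783 were higher and 3158 lower, and 4886 past 2-fold against 5115 with it. The median log2 fold change of all genes stayed between -0.07 and 0.03 over these settings. For single genes up to 12 settings were compared, leaving out the test against a fold of 1.5. Of 225 called genes named in the text, 187 passed in every one of these and 38 lost the call in at least 1. For 13 the call was lost only with a mouse left out: Ahnak, Atp5c1, Camp, Ccne1, Coro1a, Esr1, H2-Aa, Mvd, Ndufa10, Nr4a2, Pdgfra, Scnn1g and Wap. The other 25 lost it in at least 1 further setting: Bmpr1b, Efna1, Egfr, Elovl5, Fabp4, Fasn, Fosb, H2-Ab1, Irf1, Irs1, Krt23, Krt6a, Notch2, Nrg2, Oas1a, Plxnb1, Rpl27, Rps16, Scd2, Sdha, Tfap2c, Tgfa, Tlr2, Uqcrq and Wnt5a. Glycam1 and Eef1a1, not called, passed in at least 1 setting. Of 236 genes named, 0 changed direction with a call. Of 468 list medians recomputed, 86 moved by more than the spread between mice. The causes were not tested. With 3 mice, small differences and genes with few counts have wide errors, and depth limits the genes at or near 0 in LP, whose libraries were the shallower side in mice 1 and 2.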
